A study of Mus musculus with 13 samples.

Results

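The levels of 8 genes of the extracellular adenosine pathway were followed in bulk RNA of lymph nodes draining a tumour (tdLN) and of the melanomas themselves in mice. The 8 genes are known to make, remove, transport or sense adenosine. No measured value is part of that rule, though the genes were chosen with earlier results of these data known. Each was found as 1 row among the 49315 gene IDs of the count tables, and all 8 passed the filter on low counts in both comparisons.

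The bulk RNA-seq libraries used here form 3 groups of 3. Foxp3ΔJag1 tdLN came from Foxp3eGFP-Cre-ERT2 Jag1 fl/fl mice, in which a tamoxifen-inducible Cre driven from Foxp3 recombines floxed Jag1, a Notch ligand gene, in regulatory T cells (Tregs). Foxp3Ctrl tumours and Foxp3Ctrl tdLN came from controls given as WT in the sample labels and as fl/wt with the same Cre in the design text. All were females treated with tamoxifen (5 doses, 0.1 mg/g) when 6 to 8 weeks old, and all received 200000 cells of B16F10, a mouse melanoma line, in matrigel under the skin of the flank after 9 days without the drug, at an age of up to 11 weeks. Each library was made from whole tissue, so the cells in which Cre acts were read together with all others, and the libraries carry 1 batch label. The library names give each node a code of its own, shared between a control tumour and a control node, which is taken here to stand for a mouse; the labels do not say so outright, and p-values measure the spread between these samples. A further 4 samples, the Foxp3ΔJag1 tumours, were not analysed here.

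Extracellular ATP signals danger to immune cells, while the adenosine made from it restrains them. Entpd1 (CD39) on the cell surface trims ATP and ADP to AMP, and Nt5e (CD73) turns AMP into adenosine; Tregs are known for carrying both enzymes. Adenosine acts through G protein-coupled receptors. Those encoded by Adora2a, a main brake on T cells, and Adora2b, which has a lower affinity for adenosine, raise cyclic AMP. Adenosine is removed by deamination to inosine (Ada) and by phosphorylation to AMP inside the cell (Adk). It is also removed by passage through the equilibrative nucleoside transporter encoded by Slc29a1. Dpp4 (CD26) is a surface peptidase of T cells that in human cells also holds adenosine deaminase at the membrane.

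Promoter windows of 3 genes are shown because their genes stood at the ends of the tumour comparison: Dpp4 and Nt5e were among the members lowest in tumours relative to nodes, and Adora2b was higher there. Each runs over 300 bases, 250 before to 50 after a RefSeq start, on GRCm38.p6 and in the direction of the gene. Capitals mark GC boxes, that is GGGCGG or its reverse complement CCGCCC, with overlapping matches counted singly. The windows lie at chr2:62412182-62412481 (minus strand) for Dpp4, at chr9:88327359-88327658 (plus strand) for Nt5e and at chr11:62248734-62249033 (plus strand) for Adora2b.
Dpp4: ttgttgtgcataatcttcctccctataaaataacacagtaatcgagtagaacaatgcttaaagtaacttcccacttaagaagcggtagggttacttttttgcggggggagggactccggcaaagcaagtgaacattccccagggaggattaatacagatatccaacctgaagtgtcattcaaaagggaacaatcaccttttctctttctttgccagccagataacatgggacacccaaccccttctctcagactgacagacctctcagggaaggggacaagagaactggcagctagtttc
Nt5e: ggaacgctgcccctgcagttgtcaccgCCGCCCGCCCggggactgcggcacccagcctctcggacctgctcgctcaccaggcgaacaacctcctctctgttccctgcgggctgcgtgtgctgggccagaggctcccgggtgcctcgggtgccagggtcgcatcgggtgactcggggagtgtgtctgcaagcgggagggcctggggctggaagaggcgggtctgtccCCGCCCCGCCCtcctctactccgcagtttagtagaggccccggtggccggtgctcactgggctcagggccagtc
Adora2b: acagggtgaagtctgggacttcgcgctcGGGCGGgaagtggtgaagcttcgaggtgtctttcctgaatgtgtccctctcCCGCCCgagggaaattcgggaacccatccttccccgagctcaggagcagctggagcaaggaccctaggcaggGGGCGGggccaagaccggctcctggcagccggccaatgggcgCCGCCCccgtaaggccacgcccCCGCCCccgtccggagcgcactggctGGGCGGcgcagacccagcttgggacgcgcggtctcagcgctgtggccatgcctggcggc
The Dpp4 window was the poorest of these in G and C, at 45.3%, and held 0 GC boxes and 1 match to TATAAA on either strand. The Nt5e window had 71.0% G and C with 4 GC boxes, and the Adora2b window 70.0% with 6. Nt5e and Adora2b were alike in these measures, and no link between the letters and the levels was tested. Among 32851 RefSeq promoter windows of this length, 35.7% held a GC box, 13.6% held TATAAA or its reverse complement, and the median G and C content was 52.7%. Windows matched 7 of the 8 members, 16 in all, of which 8 were of Slc29a1, some of them overlapping. A GC box was held by 10 of the 16 windows, in 5 of the 7 members. A match describes the letters and is not a binding site. Adora2a had no matching window.

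The nodes and tumours carried the markers of their labelled tissue, and the control tumours differed widely from the nodes in cell content. Total counts lay between 32117478 and 44540888 per library, and levels are given as counts-per-million values (CPM) of these totals. The summed level of 7 T cell markers was 35.84 to 59.1 CPM in Foxp3Ctrl tumours and 1323 to 1688 CPM in Foxp3Ctrl tdLN, and that of 6 B cell markers 2.221 to 3.808 CPM in Foxp3Ctrl tumours and 3021 to 3325 CPM in Foxp3Ctrl tdLN. The 5 melanoma markers summed to 16390 to 21780 CPM in Foxp3Ctrl tumours and 4.203 to 24.82 CPM in Foxp3Ctrl tdLN. In Foxp3ΔJag1 tdLN the T cell sum was 1458 to 1702 CPM and the B cell sum 3042 to 3356 CPM. Jag1 itself, the targeted gene, stood at 27.8, 20.7 and 23.8 CPM in Foxp3ΔJag1 tdLN, against 22.0, 23.2 and 24.4 CPM in Foxp3Ctrl tdLN (log2 fold change 0.03 ± 0.11 SE; adjusted p = 0.984, edgeR). Whole-node counts over the entire gene do not check a deletion limited to Foxp3-expressing cells.

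The first comparison asked whether deleting Jag1 in Tregs went with another level of the adenosine genes in the draining node. No member was called: 0 of 8 had an adjusted p under 0.05 by edgeR's quasi-likelihood test, with p-values adjusted by Benjamini and Hochberg over all 18440 genes tested, and 0 of 8 had an unadjusted p under 0.05. DESeq2 and limma-voom also called 0 of 8. Of all genes tested, 7 (0.038%) were called, and 581 (3.15%) had an unadjusted p under 0.05. The 7 became 16 without Foxp3ΔJag1 tdLN replicate 2 and 21 without Foxp3Ctrl tdLN replicate 3, while the members called stayed at 0. The log2 fold change, Foxp3ΔJag1 over Foxp3Ctrl, was above 0 for 3 members and below 0 for 5, with a median of -0.09 beside -0.004 over all genes tested. In 1 of 8 members, Entpd1, the 3 libraries of one group all lay outside the range of the other; this held for 7.29% of all genes tested.

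The second comparison set the control tumours against the control nodes. Of the 8 members, 7 were called by edgeR, 5 lower and 2 higher in tumours, against 73.2% of the 18566 genes tested (37.6% lower and 35.6% higher). Groups did not overlap in 7 of 8 members and in 77.9% of all genes, so a call alone is the usual state of a gene here. The sizes differed far more: Dpp4, Nt5e and Adora2a were 21.7-fold, 13.5-fold and 12.1-fold lower in Foxp3Ctrl tumours, while Entpd1 and Ada were 2.36-fold and 1.93-fold lower and Adora2b was 2.35-fold higher. The median log2 fold change of the members was -1.10, beside -0.05 over all genes tested. In bulk tissue, fewer cells of a type and less RNA per cell cannot be told apart. The sums of lymphocyte markers given above were also lower in tumours, as were Dpp4, Nt5e, Adora2a, Entpd1 and Ada, while Adora2b and Adk were higher. The part of cell content in these differences was not tested.

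**Figure D1:**
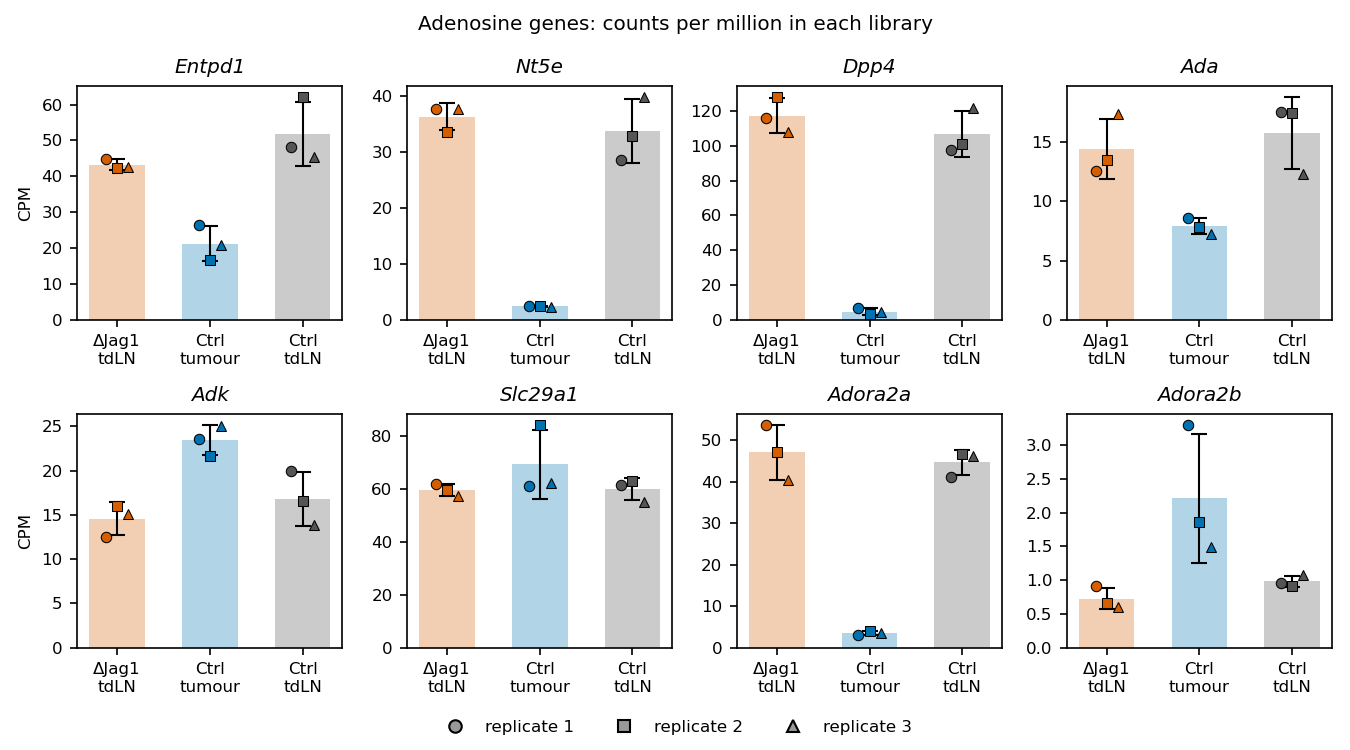
CPM of each adenosine gene in every library (points), with the mean of each group (bars) and its SD (error bars, n = 3); marker shapes give the replicate number, and every vertical axis starts at 0. Nt5e, Adora2a and Dpp4 are far lower in the 3 Foxp3Ctrl tumours than in either node group, Adora2b and Adk are higher there, and the node groups overlap for all genes but Entpd1.

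Entpd1 (ENSMUSG00000048120, chr19:40612366-40741602, plus strand, GRCm38) was the member with the smallest unadjusted p between the node groups. It measured 44.9, 42.3 and 42.6 CPM in Foxp3ΔJag1 tdLN, against 48.1, 62.1 and 45.4 CPM in Foxp3Ctrl tdLN. All 3 Foxp3ΔJag1 nodes lay below all 3 Foxp3Ctrl nodes, but the lowest control, at 45.4 CPM, was close to the highest Foxp3ΔJag1 node, at 44.9 CPM. The log2 fold change was -0.29 ± 0.13 (SE; 95% interval -0.58 to 0.003), with an unadjusted p of 0.0517 and an adjusted p of 0.953 by edgeR. Without Foxp3Ctrl tdLN replicate 2, the highest control, the log2 fold change was -0.12, and without Foxp3Ctrl tdLN replicate 3 it was -0.40, with an adjusted p of 0.199 by edgeR, the lowest over the 15 alternatives, which reached up to 1.0. Foxp3Ctrl tdLN replicate 2 had the highest sum of the 3 control nodes for 6 of the 14 marker lists, among them macrophage (548.7 CPM), endothelial (711.9 CPM) and lymphatic endothelial markers (226.3 CPM), and the lowest for T cell, B cell and melanoma markers. Foxp3Ctrl tdLN replicate 3 had the highest for 7 lists, among them Treg, T cell, melanoma (24.82 CPM) and epithelial markers (132.5 CPM). Its sums were the lowest for macrophage (238.8 CPM), lymphatic endothelial (60.8 CPM) and stromal markers. In Foxp3ΔJag1 tdLN the macrophage, endothelial and lymphatic endothelial sums were 311.6 to 368.6, 583.1 to 594.4 and 102.5 to 116 CPM. Foxp3Ctrl tdLN replicates 1 and 3 lay on both sides of these for macrophage (378.6 and 238.8 CPM) and lymphatic endothelial markers (143.6 and 60.8 CPM). For endothelial markers both lay below them (556.8 and 561.4 CPM). The part of these cells in the Entpd1 difference was not tested.

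In tumours Entpd1 read 26.4, 16.6 and 20.7 CPM, with no overlap with the control nodes. That was 2.36-fold lower in Foxp3Ctrl tumours than in Foxp3Ctrl tdLN (log2 fold change -1.24 ± 0.21 SE, adjusted p = 0.000874, edgeR). Tumour replicate 1, the highest for Entpd1, had the highest sum of the tumours for 11 of the 14 marker lists, macrophages included (413.8 CPM), and the part of these cells was not tested. Of 6 macrophage markers tested, 2 were higher and 1 lower in Foxp3Ctrl tumours by edgeR. Lower were 7 of 7 T cell, 6 of 6 B cell, 5 of 6 Treg, 5 of 5 dendritic cell and 4 of 5 endothelial markers, with 0 higher. Of 5 stromal markers 3 were lower and 1 higher, and of 4 lymphatic endothelial markers 1 was lower and 1 higher. Over all genes tested, 37.6% were called lower and 35.6% higher.

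Nt5e (ENSMUSG00000032420, chr9:88327197-88372092, plus strand) followed Entpd1 as the next enzyme of the route but not in its pattern. Levels were 37.7, 33.5 and 37.6 CPM in Foxp3ΔJag1 tdLN, against 28.5, 32.8 and 39.8 CPM in Foxp3Ctrl tdLN. The Foxp3ΔJag1 nodes sat inside the range of the controls, with a log2 fold change of 0.09 ± 0.11 (SE; 95% interval -0.17 to 0.34; adjusted p = 0.953, edgeR). Tumours held 91, 99 and 74 counts of Nt5e, or 2.42, 2.42 and 2.30 CPM. Their exact 95% Poisson intervals, which cover counting error only, were 1.95 to 2.98, 1.96 to 2.94 and 1.81 to 2.89 CPM, wider than the spread between the 3 tumours. The tumour level lay 13.5-fold below the Foxp3Ctrl nodes (log2 fold change -3.76 ± 0.15 SE; adjusted p = 5.76e-07, edgeR).

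Dpp4 (ENSMUSG00000035000, chr2:62330073-62412231, minus strand) had the highest CPM of the members in both node groups. It was read at 115.9, 128.1 and 108.2 CPM in Foxp3ΔJag1 tdLN, against 97.7, 101.4 and 122.0 CPM in Foxp3Ctrl tdLN. These overlapped, and the log2 fold change was 0.11 ± 0.09 (SE; 95% interval -0.10 to 0.33; adjusted p = 0.953, edgeR). Tumours gave 6.71, 3.08 and 4.42 CPM, a 21.7-fold lower level than in Foxp3Ctrl tdLN (log2 fold change -4.44 ± 0.27 SE; adjusted p = 7.01e-06, edgeR). The tumours differed among themselves by 2.18-fold in Dpp4, with replicate 1 the highest. This tumour had the highest sum of the 3 for 11 of the 14 marker lists, among them the Treg (27.96 CPM), B cell (3.808 CPM), dendritic cell (20.58 CPM) and macrophage (413.8 CPM) lists, and the lowest for T cell (35.84 CPM) and melanoma markers (16390 CPM). The part of these cells in the Dpp4 level was not tested. An antisense gene, Gm13561, covers 232 bases (3.67%) of the Dpp4 exons, and had 228, 4 and 194 counts in total over the Foxp3ΔJag1 nodes, Foxp3Ctrl tumours and Foxp3Ctrl nodes; the strand setting of the counting is not given in the sources used here.

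Ada (ENSMUSG00000017697, chr2:163726584-163750239, minus strand), which turns adenosine into inosine, varied as much within the node groups as between them. It measured 12.5, 13.5 and 17.3 CPM in Foxp3ΔJag1 tdLN, against 17.6, 17.5 and 12.3 CPM in Foxp3Ctrl tdLN. One library in each group stood at the other group's level (log2 fold change -0.15 ± 0.19 SE; 95% interval -0.58 to 0.28; adjusted p = 0.953, edgeR). In tumours Ada reached 8.57, 7.86 and 7.22 CPM, below every node, and was 1.93-fold lower than in Foxp3Ctrl tdLN (log2 fold change -0.95 ± 0.20 SE; adjusted p = 0.00298, edgeR).

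Adk (ENSMUSG00000039197, chr14:21052574-21448569, plus strand), the kinase that returns adenosine to AMP, was one of the 2 members higher in tumours. Foxp3ΔJag1 tdLN had 12.5, 16.0 and 15.2 CPM, against 20.0, 16.6 and 13.8 CPM in Foxp3Ctrl tdLN. The node groups overlapped (log2 fold change -0.23 ± 0.17 SE; 95% interval -0.61 to 0.15; adjusted p = 0.953, edgeR). Tumours had 23.6, 21.7 and 25.1 CPM, each above every node, and the level was 1.45-fold higher than in Foxp3Ctrl tdLN (log2 fold change 0.53 ± 0.17 SE; adjusted p = 0.02, edgeR). Leaving out Foxp3Ctrl tdLN replicate 1, the highest of the controls, raised the log2 fold change to 0.68, and leaving out Foxp3Ctrl tdLN replicate 3, the lowest, brought it to 0.37.

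Slc29a1 (ENSMUSG00000023942, chr17:45585200-45599606, minus strand), the transporter, was the member with the most even level across tissues. It stood at 61.8, 59.7 and 57.5 CPM in Foxp3ΔJag1 tdLN, against 61.8, 63.0 and 55.3 CPM in Foxp3Ctrl tdLN. The node groups nearly coincided, with a log2 fold change of -0.03 ± 0.09 (SE; 95% interval -0.23 to 0.16; adjusted p = 0.973, edgeR). Tumours gave 61.3, 84.4 and 62.4 CPM, where replicate 2 stood above the rest. The tumour difference was not called (log2 fold change 0.26 ± 0.15 SE; 95% interval -0.09 to 0.62; adjusted p = 0.153, edgeR), although a joint fit of the 9 libraries did call it, with an adjusted p of 0.0484 by edgeR; over the 15 alternatives the adjusted p ran from 0.0484 to 0.403. The antisense gene Gm17080 shares 275 bases (6.86%) of the Slc29a1 exons, with 117, 99 and 80 counts in total over the Foxp3ΔJag1 nodes, Foxp3Ctrl tumours and Foxp3Ctrl nodes.

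The receptors went opposite ways in tumours. Adora2a (ENSMUSG00000020178, chr10:75316877-75334784, plus strand) was read at 53.6, 47.2 and 40.3 CPM in Foxp3ΔJag1 tdLN, against 41.1, 46.6 and 46.2 CPM in Foxp3Ctrl tdLN. The highest and the lowest of these 6 nodes were both Foxp3ΔJag1 (log2 fold change 0.05 ± 0.11 SE; 95% interval -0.20 to 0.30; adjusted p = 0.967, edgeR). In tumours the gene was at 3.12, 4.00 and 3.52 CPM, 12.1-fold below Foxp3Ctrl tdLN (log2 fold change -3.59 ± 0.14 SE; adjusted p = 5.73e-07, edgeR).

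Adora2b (ENSMUSG00000018500, chr11:62248984-62266453, plus strand) was the least read member, and its node values rest on few counts. Foxp3ΔJag1 tdLN had 35, 22 and 27 counts, or 0.911, 0.664 and 0.606 CPM, against 35, 39 and 38 counts, or 0.964, 0.906 and 1.07 CPM, in Foxp3Ctrl tdLN. The exact 95% Poisson intervals, which cover counting error only, were 0.635 to 1.27 CPM for the highest Foxp3ΔJag1 node and 0.644 to 1.24 CPM for the lowest Foxp3Ctrl node, so these 2 libraries could not be told apart at this depth. The log2 fold change was -0.45 ± 0.26 (SE; 95% interval -1.05 to 0.15; adjusted p = 0.953, edgeR), the largest in size among the members between the node groups and the least certain. Tumours had 124, 76 and 48 counts, or 3.30, 1.86 and 1.495 CPM. All 3 tumours lay above all nodes, 2.35-fold above Foxp3Ctrl tdLN (log2 fold change 1.24 ± 0.34 SE; adjusted p = 0.0111, edgeR), yet they differed among themselves by 2.21-fold. The highest of them was again replicate 1, the tumour with the highest sum for 11 of the 14 marker lists; the part of these cells was not tested. Without this tumour the log2 fold change was 0.86.

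**Figure D2:**
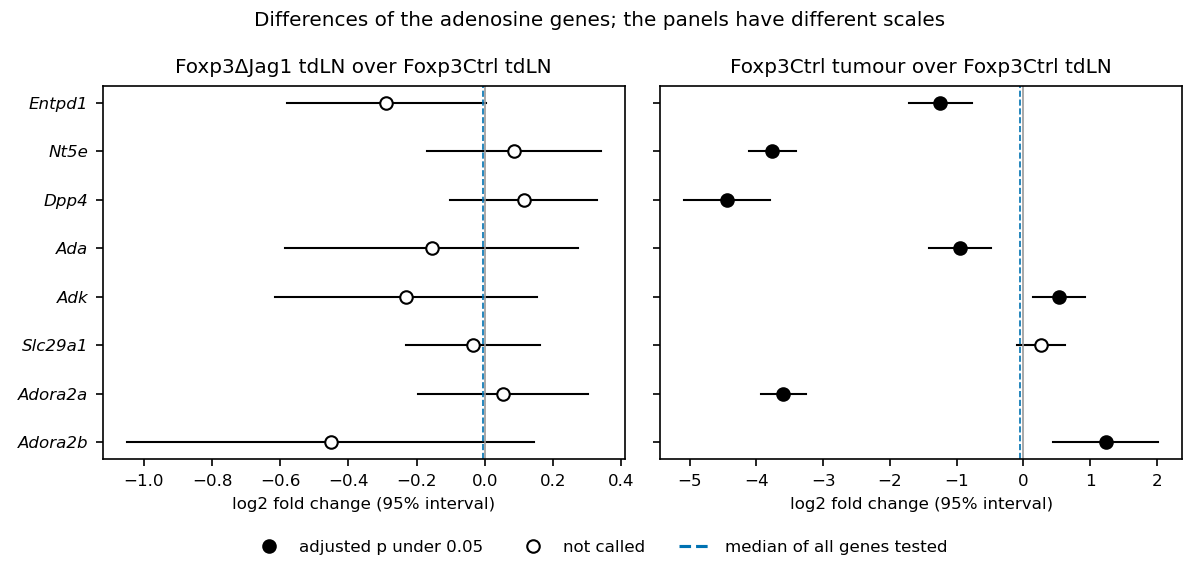
Log2 fold change of each adenosine gene with its 95% interval, for Foxp3ΔJag1 over Foxp3Ctrl nodes (left) and for Foxp3Ctrl tumours over Foxp3Ctrl nodes (right), on axes of different scale; filled points have an adjusted p under 0.05 and the dashed line is the median of all genes tested. No point is filled on the left, where the values run from -0.45 to 0.11, and 7 of 8 are filled on the right, where they run from -4.44 to 1.24.

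Levels were next compared between members after division by the summed length of each gene's annotated exons, as CPM per kilobase of exon (RPKM). In Foxp3ΔJag1 tdLN the order was Dpp4 (18.6 ± 1.59 RPKM), Adora2a (15.4 ± 2.17), Slc29a1 (14.9 ± 0.542), Entpd1 (7.75 ± 0.26), Ada (7.21 ± 1.27), Nt5e (4.22 ± 0.281), Adk (1.71 ± 0.215) and Adora2b (0.394 ± 0.0878; SD, n = 3 throughout). Dpp4 overlapped with Adora2a, and Adora2a with Slc29a1, over the libraries, but Dpp4 and Slc29a1 did not overlap. Entpd1 and Ada overlapped, while the other neighbours did not. In Foxp3Ctrl tdLN the top was Dpp4 (16.9 ± 2.07 RPKM), Slc29a1 (15.0 ± 1.03) and Adora2a (14.6 ± 1.01), where each overlapped with the next but Dpp4 and Adora2a did not overlap. Below them stood Entpd1 (9.30 ± 1.60 RPKM) and Ada (7.88 ± 1.51), which overlapped, then Nt5e (3.92 ± 0.661), Adk (1.97 ± 0.361) and Adora2b (0.531 ± 0.0457).

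The order in Foxp3Ctrl tumours was a different one. Slc29a1 came first at 17.3 ± 3.24 RPKM, followed by Ada (3.94 ± 0.338) and Entpd1 (3.804 ± 0.885), which overlapped, and by Adk (2.75 ± 0.201). Adora2b (1.20 ± 0.519 RPKM), Adora2a (1.16 ± 0.145) and Dpp4 (0.749 ± 0.291) could not be ordered beyond their spread, and Nt5e was last at 0.277 ± 0.00778 RPKM. The receptors were thus at like levels per length in tumours, while Adora2a was far above Adora2b in the nodes. The choice of length matters for the order, at the top and below it. With the longest annotated transcript in place of all exons, Slc29a1 came first in each group, at 26.9, 31.3 and 27.1 RPKM in Foxp3ΔJag1 tdLN, Foxp3Ctrl tumours and Foxp3Ctrl tdLN. With that length mean Nt5e (9.08 RPKM) stood above mean Ada (8.55 RPKM) in Foxp3ΔJag1 tdLN. In tumours Adk came second with that length, at 5.53 RPKM, and only 2 neighbours in the order were apart instead of 4. Mean Entpd1 (5.03 RPKM) was then above Ada (4.67 RPKM) in tumours, and Adora2a (1.37 RPKM) above Adora2b (1.20 RPKM).

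**Figure D3:**
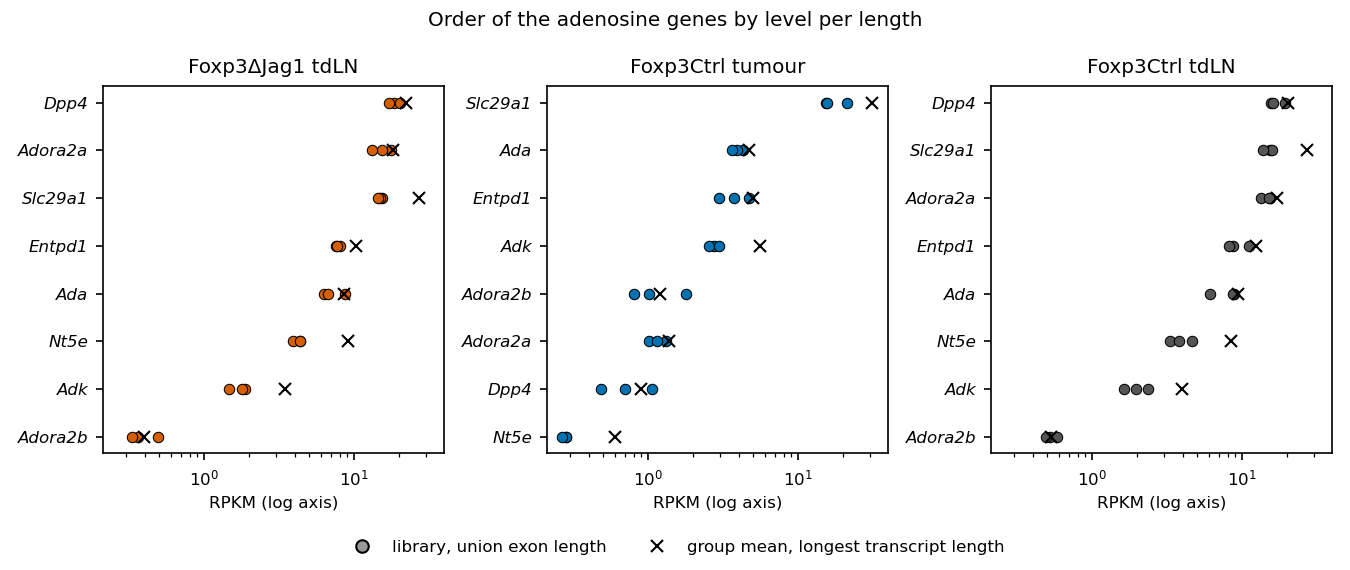
Level per length (RPKM, log axis) of each adenosine gene in every library, ordered from high to low within each group; circles use the summed exon length and crosses give the group mean with the length of the longest transcript. By the summed exon length, Adora2b is lowest and Dpp4 highest in both node groups, whereas in tumours Slc29a1 is highest and Nt5e lowest.

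Ratios of members within a library do not depend on how libraries are scaled. With 3 libraries against 3, the smallest p an exact permutation test can give is 0.1, so none of the 8 ratio tests could reach 0.05, and values adjusted over the 8 tests were at least 0.16. The ratio of Entpd1 to Nt5e, the first enzyme to the second, was 1.84, 1.95 and 1.74 in Foxp3ΔJag1 tdLN, against 2.60, 2.92 and 1.76 in Foxp3Ctrl tdLN. These overlapped (difference of mean log2 ratios -0.37; exact two-sided p = 0.3). The size of the excess of Entpd1 depends on the length used, while the differences between groups do not. With the longest transcript, mean Entpd1 and Nt5e were 10.25 and 9.08 RPKM in Foxp3ΔJag1 tdLN, and 12.3 and 8.44 RPKM in Foxp3Ctrl tdLN. In tumours the ratio of Entpd1 to Nt5e was 16.8, 10.6 and 13.9, above every node; the difference of mean log2 ratios from Foxp3Ctrl tdLN was 2.51 (exact two-sided p = 0.1, the smallest possible).

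Adora2a exceeded Adora2b by 35.5-, 42.9- and 40.1-fold in Foxp3ΔJag1 tdLN, against 25.7-, 31.0- and 26.0-fold in Foxp3Ctrl tdLN. The node groups did not overlap in this ratio, with a difference of mean log2 ratios of 0.52 (exact two-sided p = 0.1, the smallest possible; 0.16 after adjustment over 8 tests). Its denominator is the member with the fewest counts. In tumours the ratio was 0.569, 1.30 and 1.42, so that tumour replicate 1 alone had more Adora2b than Adora2a per length. The mean log2 ratio of Adora2a to Adora2b was 0.02 ± 0.73 in Foxp3Ctrl tumours and 4.78 ± 0.15 in Foxp3Ctrl tdLN (SD, n = 3; exact permutation p = 0.1).

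Between the enzymes that remove adenosine, Ada exceeded Adk by 4.26-, 3.57- and 4.87-fold per length in Foxp3ΔJag1 tdLN, against 3.75-, 4.48- and 3.78-fold in Foxp3Ctrl tdLN. The node groups overlapped (exact two-sided permutation p = 0.7). In tumours the excess of Ada was 1.55-, 1.54- and 1.23-fold, below all nodes, with a difference of mean log2 ratios of -1.48 from Foxp3Ctrl tdLN (exact permutation p = 0.1). This excess in tumours depends on the length used. With the longest transcript, mean Adk (5.53 RPKM) stood above mean Ada (4.67 RPKM) in Foxp3Ctrl tumours.

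Foxp3, the transcription factor gene that marks Tregs, was used to set the 2 producing enzymes against a marker of the targeted cells. It read 23.8, 17.8 and 17.5 CPM in Foxp3ΔJag1 tdLN, against 12.2, 18.0 and 18.0 CPM in Foxp3Ctrl tdLN. The log2 fold change of Foxp3 was 0.28 ± 0.18 (SE; adjusted p = 0.953, edgeR). Entpd1 over Foxp3, per length, was 1.55, 1.95 and 1.99 in Foxp3ΔJag1 tdLN, against 3.24, 2.84 and 2.07 in Foxp3Ctrl tdLN. All 3 Foxp3ΔJag1 nodes lay below all 3 controls, by 1.99 beside 2.07 at the closest, with a difference of mean log2 ratios of -0.56 (exact two-sided p = 0.1, the smallest possible; 0.16 after adjustment over 8 tests). Nt5e over Foxp3 did not separate the groups (difference of mean log2 ratios -0.19, exact two-sided p = 0.3). Entpd1 and Nt5e are made by other cells of the node as well, so a ratio over whole tissue is not a level per Treg.

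**Figure D4:**
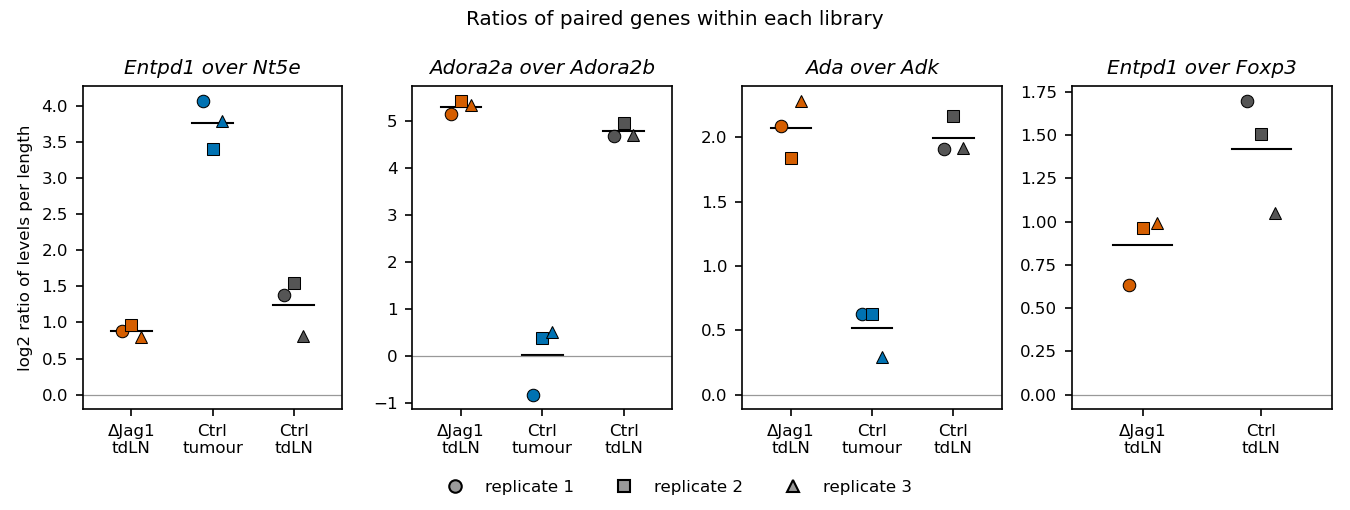
Log2 ratios per length within each library (points; shapes give the replicate number) with the group mean (line), for Entpd1 over Nt5e, Adora2a over Adora2b, Ada over Adk, and Entpd1 over Foxp3 in the nodes. Tumours stand above the nodes for Entpd1 over Nt5e and below them for Adora2a over Adora2b and Ada over Adk, and the Foxp3ΔJag1 nodes lie below the Foxp3Ctrl nodes for Entpd1 over Foxp3.

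Which genes had the profile most like each member was asked over the 9 libraries, with the profile taken as log2(CPM + 1) centred on its own mean, and likeness as the root mean square difference from 13116 protein-coding candidates with a mean of at least 1 CPM. Nt5e was closest to Sit1, at 0.0718 log2 units, and to Tesc, at 0.0921. Sit1 averaged 26.0 ± 1.56 CPM in Foxp3ΔJag1 tdLN, 1.51 ± 0.125 CPM in Foxp3Ctrl tumours and 25.7 ± 3.34 CPM in Foxp3Ctrl tdLN (SD, n = 3). The profile of Adora2a was nearest to those of Mfng (0.0794) and Sh2d3c (0.0886), and that of Dpp4 to those of Dennd2d (0.101) and Arl4c (0.124). Entpd1 lay nearest to Gpr160 (0.0907) and Ptpn13 (0.102), and Ada to Blvrb (0.119) and Ube2j1 (0.128). For the members higher in tumours, the nearest were Ebf2 (0.0868) and Cd9 (0.114) to Adora2b, and Fam72a (0.0891) and Psme4 (0.0984) to Adk. Slc29a1 had the closest match of all, Ddx49, at 0.0421, followed by Nubp2 at 0.054. Among the members themselves Nt5e and Adora2a were closest (0.152), Entpd1 and Ada came next (0.256), and Adora2b and Dpp4 were farthest apart (2.42). The 9 libraries come from 2 tissues, so the step between tumour and node enters every one of these distances. The added 1 CPM flattens profiles near or below that level, as for Adora2b and Ebf2. Tesc averaged 13.4 CPM in Foxp3Ctrl tdLN and 0.381 CPM in Foxp3Ctrl tumours, beside 33.7 and 2.38 CPM for Nt5e.

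Around the 8 members stand 67 other genes of the pathway in 6 lists, of which 60 were tested. The lists, like the members, were chosen with earlier results of these data known. Between the node groups 0 of the 60 were called by edgeR, and 1 had an unadjusted p under 0.05. That gene was Alpl, a phosphatase of the cell surface, at 7.05 ± 0.651 CPM in Foxp3ΔJag1 tdLN and 10.1 ± 2.67 CPM in Foxp3Ctrl tdLN (SD, n = 3; log2 fold change -0.55, adjusted p = 0.953, edgeR). The other receptor gene Adora3 had 0.798 ± 0.2 CPM in Foxp3ΔJag1 tdLN and 1.32 ± 0.608 CPM in Foxp3Ctrl tdLN, with a log2 fold change of -0.76 and an adjusted p of 0.953 by edgeR. The smallest p in each of the other lists belonged to Slc29a3, Hprt, P2rx4 and Pde4d, with log2 fold changes of -0.18, -0.09, 0.14 and 0.22. List medians lay between -0.38, for the 2 other adenosine receptors, and 0.04, for the 4 other nucleoside transporters, beside -0.004 over all genes.

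Between Foxp3Ctrl tumours and Foxp3Ctrl tdLN, 49 of the 60 were called, 21 higher and 28 lower, beside the 73.2% of all genes given above. Of the other surface enzymes acting on nucleotides, 8 of 9 were called, 6 lower and 2 higher, with a median log2 fold change of -1.41. Cd38, which consumes NAD outside the cell, was at 21.2 ± 1.56 CPM in Foxp3Ctrl tumours and 109.9 ± 6.61 CPM in Foxp3Ctrl tdLN (log2 fold change -2.32, adjusted p = 1.11e-06, edgeR). Enpp1, which splits ATP to AMP, was at 5.93 ± 0.704 CPM in Foxp3Ctrl tumours and 39.3 ± 1.65 CPM in Foxp3Ctrl tdLN (log2 fold change -2.68, adjusted p = 1.51e-06, edgeR). Art2b, an ADP-ribosyltransferase of T cells, averaged 0.196 ± 0.0737 CPM in tumours and 25.2 ± 14.1 CPM in nodes, with an adjusted p of 5.07e-05 by edgeR. Entpd1 and Nt5e were thus lower in tumours, as were 6 of the 9 other enzymes of the cell surface, beside 37.6% of all genes tested.

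Of the other adenosine receptors, Adora3 was lower in Foxp3Ctrl tumours, at 0.45 ± 0.0514 CPM beside 1.32 ± 0.608 CPM in Foxp3Ctrl tdLN (adjusted p = 0.00974, edgeR), and Adora1 was not called. These levels are low, and with the filter that asked for 1 CPM or more in 3 libraries, 0 genes of this list were called. All 4 tested nucleoside transporters besides Slc29a1 were lower in tumours, with a median log2 fold change of -2.27, where 37.6% of all genes were called lower. Slc28a2, a concentrative transporter, was at 10.6 ± 5.91 CPM in Foxp3Ctrl tumours and 119.8 ± 25.7 CPM in Foxp3Ctrl tdLN (log2 fold change -3.44, adjusted p = 0.000297, edgeR). Slc29a3 was lower by 1.09 on the log2 scale (adjusted p = 0.000246, edgeR) and Slc29a4 had a log2 fold change of -4.42 (adjusted p = 6.44e-05, edgeR). Slc29a1 was therefore the one tested transporter of the 5 that was not called in the fit of these groups alone; no test of its difference from the other 4 was made.

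Enzymes of adenosine handling inside the cell were mixed in direction, as Ada and Adk were. Here 11 of 15 were called, 7 higher and 4 lower in tumours, with a median log2 fold change of 0.11. That count is near the share of all genes called, 73.2%. Adsl, an enzyme of purine synthesis, rose to 105.2 ± 12.1 CPM in Foxp3Ctrl tumours, against 54.6 ± 4.28 CPM in Foxp3Ctrl tdLN (log2 fold change 1.00, adjusted p = 0.000111, edgeR). Among the cytosolic nucleotidases Nt5c2 was higher in tumours, by 0.60 on the log2 scale (adjusted p = 0.000449, edgeR), and Nt5c had a log2 fold change of -0.59 (adjusted p = 0.000316, edgeR).

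Upstream of Entpd1 stood a list of ATP release genes and of genes named as P2 receptors for nucleotides, P2ry10 included. Of these, 11 of 15 were called, 3 higher and 8 lower in tumours, with a median of -0.59. That count too is near the 73.2% of all genes. P2ry13, a receptor for ADP, was at 2.04 ± 0.293 CPM in Foxp3Ctrl tumours and 43.9 ± 10.6 CPM in Foxp3Ctrl tdLN (adjusted p = 3.41e-06, edgeR). P2ry10, a lysophospholipid receptor of lymphocytes by its known ligands, had a log2 fold change of -5.34 (adjusted p = 2.1e-05, edgeR), whereas the ATP-gated channel gene P2rx4 was higher, at 90.4 ± 7.93 CPM in Foxp3Ctrl tumours and 60.1 ± 2.78 CPM in Foxp3Ctrl tdLN (adjusted p = 0.00029, edgeR).

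Downstream of the receptors, 14 of 15 cyclic AMP genes were called, 9 higher and 5 lower in tumours, with a median of 0.84. Over all genes tested, 73.2% were called, 35.6% higher and 37.6% lower. Rapgef3, a cyclic AMP-activated exchange factor, was 13.9-fold higher in Foxp3Ctrl tumours, at 183.9 ± 29.6 CPM beside 13.7 ± 2.11 CPM in Foxp3Ctrl tdLN (adjusted p = 1.57e-06, edgeR). Prkar2b, a regulatory subunit of protein kinase A, was 5.22-fold higher (adjusted p = 1.34e-06, edgeR), and Adcy7, an adenylyl cyclase, was 3.1-fold lower in tumours (adjusted p = 4.08e-06, edgeR).

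**Figure D5:**
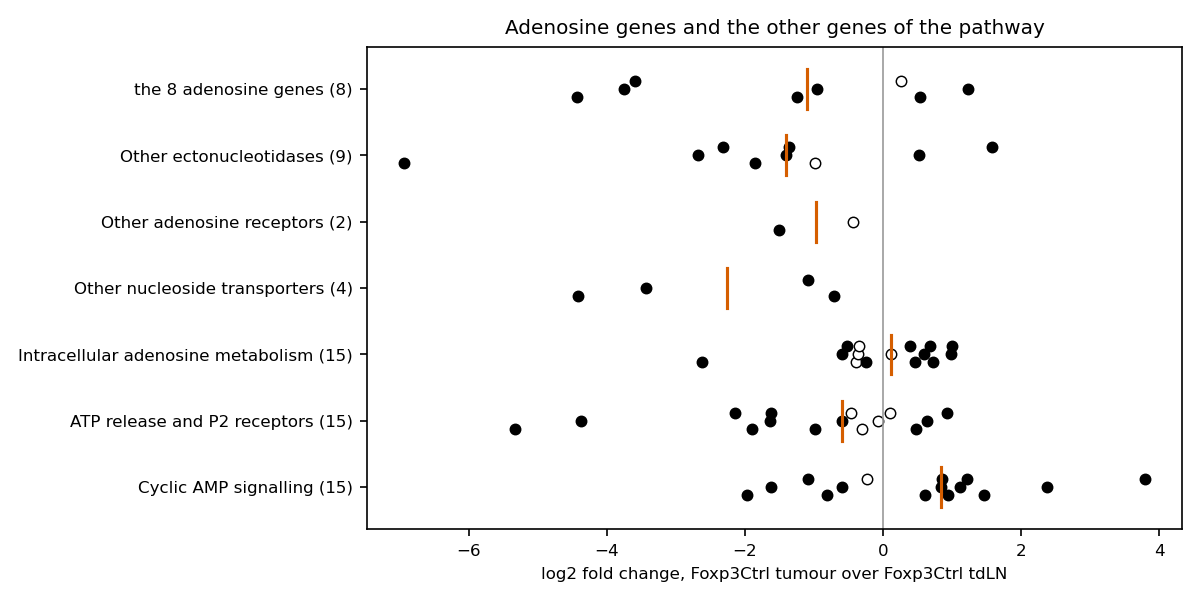
Log2 fold change, Foxp3Ctrl tumour over Foxp3Ctrl tdLN, of the 8 adenosine genes and of the tested genes in each pathway list (points; filled where the adjusted p is under 0.05), with the median of each row as an orange line and the number of genes in parentheses. The cyclic AMP genes have a median of 0.84 and the other nucleoside transporters one of -2.27, while the 8 adenosine genes run from -4.44 to 1.24.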

How the data were processed

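Bulk RNA-seq libraries of whole tissue were read as raw counts per gene. The authors deposited whole-number counts in 2 tables with 49315 gene IDs each; the submitters' processing notes name featureCounts (Subread 1.5.2), STAR 2.5.2b, Trimmomatic 0.36 and the build GRCm38. Not given in the sources used here are the annotation release, the strand setting, and whether poly(A) selection or rRNA depletion was used. Columns were tied to 9 of 13 samples by library name; 3 columns that matched no sample were not used. IDs were matched to GENCODE M21 (49056 matched), which gave names, positions and exon lengths; promoter windows came from RefSeq on GRCm38.p6.

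Each comparison was fitted alone with edgeR 4.0.16 (R 4.3.3; TMM, filterByExpr, robust quasi-likelihood test), with p-values adjusted by Benjamini and Hochberg over all genes tested and called under 0.05. The code was tested on simulated data. Ratios within a library were compared by exact two-sided permutation tests (scipy 1.17.1). Alternatives were DESeq2 1.42.0, limma-voom (limma 3.58.1), other scaling and filters, a replicate block, a joint fit and leaving out each library. Total counts of 32117478 to 44540888 per library leave few counts for Adora2b in all groups (22 to 124 per library) and for Nt5e in tumours (74 to 99), where counting error is widest. Replicates of a group differed beyond sampling noise (chi-square per degree of freedom 17.08 to 75.42), so none was merged.

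Control tumour and node libraries of one replicate number carry the same code in their library names, taken to stand for a mouse, so the numbers were taken to pair them; the correlations of their deviations from the group means were -0.083, 0.127 and -0.003. With the replicate block 13375 genes were called in the tumour comparison, against 13583 without it. The 8 members, the pathway lists and the marker lists were chosen with earlier results of these data known. Named genes were the 8 members, Jag1, Foxp3, up to 3 called genes of each list with the smallest p (or the 1 with the smallest p where none was called) and the 2 protein-coding genes with the most similar profile to each member. Pnp, of the list on intracellular metabolism, was not analysed here.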

Additional observations from a re-analysis of the deposited data

How the results depend on the processing

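Between the node groups 0 of 8 members and 0 of the 60 tested pathway genes were called under each of the 15 alternatives, and in the tumour comparison 7 members were called under 14 alternatives and 8 in the joint fit, where Slc29a1 reached an adjusted p of 0.0484 (edgeR). Adora2b could not be tested between the node groups under the filter that asked for 1 CPM or more in 3 libraries. The count of all genes called between the node groups, 7, was 44 with DESeq2, 16 with no filter on low counts, 11 with the replicate block and 6 to 21 when 1 library was left out; the cause was not tested. No member's call changed with the replicate block in either comparison. Same-numbered node libraries of the 2 genotypes share only a number: the correlations of their deviations were -0.165, 0.034 and -0.124. In the tumour comparison 11788 to 14911 genes and 44 to 49 pathway genes were called. Between the node groups the log2 fold change crossed 0 when 1 library was left out for Adora2a (-0.045 to 0.164), Nt5e (-0.019 to 0.195), Slc29a1 (-0.111 to 0.019) and Jag1 (-0.079 to 0.122). With the longest transcript as gene length, 2 neighbours in the tumour order were apart instead of 4. Leaving out 1 library also moved the uncalled log2 fold changes of Entpd1 (-0.398 to -0.121), Ada (-0.324 to -0.057), Adk (-0.371 to -0.088), Dpp4 (0.039 to 0.192) and Foxp3 (0.111 to 0.385) without a change of sign. Depth limits Adora2b in all groups and Nt5e in tumours.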
